A study of Rattus norvegicus with 16 samples.

Results

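The genes described are those of the rat major histocompatibility complex, RT1, and of peptide loading for its class I and class II molecules. Members were the probe sets with a single gene symbol that began with RT1- or was Tap1, Tap2, Tapbp, Psmb8, Psmb9, B2m or Cd74. They came to 36 of 21371 probe sets (36 genes) at gene level, and to 250 of 213067 probe sets (44 genes) at exon level, with 33 genes at both levels and 47 at either. The gene-level members were 22 class I heavy chain genes, the light chain gene B2m, 7 class II genes, the invariant chain gene Cd74 and 5 processing genes.

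RNA came from whole kidneys of male embryos of 2 inbred rat strains. The Munich Wistar Frömter rat (MWF) develops albuminuria and was sampled at E15.5 (n = 4), and the spontaneously hypertensive rat (SHR) at E16.0 (n = 4). Strain and embryonic day cannot be told apart, so each difference below, always MWF minus SHR on the log2 intensity scale, carries both. The same 8 Affymetrix arrays were summarised once per gene and once per exon probe set, and these levels are not independent measurements. For 4 of the 36 gene-level members (11.1%), the values equal those of 1 exon-level probe set on every array. They are RT1-CE13, RT1-M10-1, RT1-S2 and Tap1, and the share over all gene-level probe sets was 26.6%.

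Class I molecules are a heavy chain paired with β2-microglobulin, and they display peptides from the cytosol at the surface of most nucleated cells. The immunoproteasome cuts these peptides, the TAP transporter carries them into the endoplasmic reticulum, and tapasin helps to load them. Class II molecules, found mainly on macrophages, dendritic cells and B cells, display peptides from endosomes after the invariant chain has been removed. The RT1 complex differs between rat strains both in gene sequence and in the number of class I genes, and many of its class I genes are close copies of each other. Probe sequences were not used here, so RNA level and a strain difference in the sequence under a probe cannot be told apart, and signal from a close copy is possible for each class I value.

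Array medians lay between 8.17 and 8.21 at gene level and between 7.93 and 7.99 at exon level. The 7 measured of 10 embryonic kidney markers all had means above the gene-level median, and none passed the test. Their array means were 9.41 to 9.68 in MWF and 9.25 to 9.49 in SHR. Of the 7, 6 lay above 0, with a median difference of 0.25. The 13 measured red cell markers had array means of 8.86 to 9.99 in MWF and 8.04 to 8.58 in SHR. Of these, 6 passed, all higher in MWF (46.2%, against 6.58% of all gene-level probe sets). The 7 measured liver markers had array means of 7.05 to 9.39 in MWF and 6.65 to 9.36 in SHR, and none passed. The mean of 4 sympathoadrenal genes was 8.14 on MWF replicate 1 and 6.14 to 6.30 on the other MWF arrays, but 6.03 on SHR replicate 2 and 10.78 to 11.16 on the other SHR arrays. These 2 arrays stand apart within their strains, and results that rest on either are given with and without it. Once SHR replicate 2 is left out, every remaining SHR array has a higher sympathoadrenal mean than every MWF array. Strain and this signal then cannot be told apart in results given without that array.

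Among the 22 class I heavy chain genes, 3 were higher in MWF kidneys (RT1-N2, RT1-N3 and RT1-M6-1) and 2 were lower (RT1-CE16 and RT1-CE10), a share of 22.7%. Over all gene-level probe sets, 6.58% passed the same threshold, a limma Benjamini-Hochberg adjusted p under 0.05, with 3.18% higher and 3.4% lower. The class I median difference was -0.01, against 0.02 over all probe sets. All 36 members together held 6 calls (16.7%), 3 in each direction, with 18 above 0 and 18 below. The strains did not overlap in 8 of the 36, 5 with MWF above and 3 below, against 14.4% of all probe sets.

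The promoter windows of the 4 class I genes with the smallest adjusted p are printed because a pair of them rose and a pair fell. Each runs from 250 bases before to 50 bases after the RefSeq start of transcription in assembly GRCr8, on chromosome 20, in the direction of the gene. Capitals mark matches on either strand to the interferon response core GAANNGAAA, the Y box ATTGG (the site of NF-Y) and the X2 core TGACGC, none of which overlap here. RT1-N2 lies at chr20:2646080-2646379 and RT1-N3 at chr20:2666239-2666538, both on the plus strand. RT1-CE16 lies at chr20:3265394-3265693 and RT1-CE10 at chr20:3384930-3385229, both on the minus strand.
RT1-N2: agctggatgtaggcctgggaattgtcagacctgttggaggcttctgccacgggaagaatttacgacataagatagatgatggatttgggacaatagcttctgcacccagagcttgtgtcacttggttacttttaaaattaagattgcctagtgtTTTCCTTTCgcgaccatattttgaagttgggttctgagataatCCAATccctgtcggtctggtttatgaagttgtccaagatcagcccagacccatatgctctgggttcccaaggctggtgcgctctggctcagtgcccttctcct
RT1-N3: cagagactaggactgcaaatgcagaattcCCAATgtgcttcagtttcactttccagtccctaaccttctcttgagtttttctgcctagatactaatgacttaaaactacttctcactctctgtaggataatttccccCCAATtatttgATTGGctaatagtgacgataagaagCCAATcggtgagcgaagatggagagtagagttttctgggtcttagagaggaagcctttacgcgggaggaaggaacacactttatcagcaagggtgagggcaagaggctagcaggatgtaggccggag
RT1-CE16: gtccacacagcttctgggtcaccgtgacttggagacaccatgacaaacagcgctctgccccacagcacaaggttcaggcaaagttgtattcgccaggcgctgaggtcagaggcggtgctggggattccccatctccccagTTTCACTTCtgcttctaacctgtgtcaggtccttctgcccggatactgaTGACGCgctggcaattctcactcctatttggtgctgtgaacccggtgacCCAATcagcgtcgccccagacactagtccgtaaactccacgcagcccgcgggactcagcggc
RT1-CE10: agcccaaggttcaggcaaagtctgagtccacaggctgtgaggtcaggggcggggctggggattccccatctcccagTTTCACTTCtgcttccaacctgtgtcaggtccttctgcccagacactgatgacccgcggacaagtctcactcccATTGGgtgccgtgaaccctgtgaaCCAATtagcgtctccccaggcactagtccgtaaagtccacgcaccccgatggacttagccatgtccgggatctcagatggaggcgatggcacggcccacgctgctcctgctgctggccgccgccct

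In the best local alignment, the windows of RT1-CE16 and RT1-CE10, the pair lower in MWF, shared 204 of 235 aligned columns (86.8%). Those of RT1-N2 and RT1-N3, the pair higher in MWF, shared 51 of 85 (60.0%). Pairs of opposite direction lay on both sides of this. RT1-N3 shared 71.4% with RT1-CE10 and 65.0% with RT1-CE16, and RT1-N2 shared 54.2% and 55.2% with them. The window of RT1-M6-1 shared 54.1% to 60.2% with the others. RT1-CE10 held the interferon response core 174 bases before the start and Y boxes at 100 and 76 bases before it. RT1-CE16 held the core at 110 bases, the X2 core at 61 and a Y box at 12. In both of these windows the core and the Y box nearest the start were equally far apart. The distances given rest on the annotated start of each gene. RT1-N2 held the core at 96 bases and a Y box at 53. RT1-N3 held 4 Y boxes, at 221, 113, 102 and 77, and no match to the exact core pattern, only a longer form that was not counted. The core was thus present in genes of both directions. The window of RT1-M6-1, the other class I gene that was higher in MWF, held none of these motifs.

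A RefSeq promoter was matched for 33 of the 36 members. The interferon response core was found in 10 of 20 class I windows and in 0 of 6 class II windows. It was also in 3 of 5 processing windows (Psmb8, Tap2 and Tapbp) and in that of Cd74, but not of B2m. It was found in 8.54% of all 33469 promoters of this length. Apart from RT1-N2 and RT1-T18, the class I windows with the core were all of RT1-CE genes, and the same RT1-CE windows held a Y box. Windows of close copies, such as RT1-CE16 and RT1-CE10 (86.8%), are not independent, and these shares were not tested. These counts cover the exact pattern GAANNGAAA only, and longer forms such as that in the RT1-N3 window were not counted. The Y box was found in 14 of 20 class I windows, in 6 of 6 class II windows, in 2 of 5 processing windows and in those of B2m and Cd74, against 37.5% of all promoters. The X2 core was found in 3 of 20 class I windows (RT1-CE15, RT1-CE16 and RT1-M3-1) and in 6.73% of all promoters. It was in 0 of 6 class II and 0 of 5 processing windows and in neither that of B2m nor that of Cd74. Over all members this came to 3 of 33. These matches describe letters in a window of the reference assembly and not in either strain's own sequence.

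RT1-N2, a nonclassical class I gene, had the largest difference of any member at gene level. It measured 8.74, 8.79, 8.91 and 8.96 in MWF and 6.41, 6.53, 6.60 and 6.76 in SHR. The strains lay far apart, with the lowest MWF array well above the highest SHR array. The difference was 2.28 (SE 0.09, n = 4 against 4), a ratio of 4.85, with a limma adjusted p of 1.24e-06.

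RT1-N3 stands near RT1-N2 in the genome, with the measured gene RT1-S2 between them. It measured 9.24, 9.43, 9.42 and 9.48 in MWF and 8.61, 8.87, 8.69 and 8.85 in SHR, again without overlap. The difference was 0.64 (SE 0.08, adjusted p 0.00238), a ratio of 1.55. RT1-S2 itself varied widely within SHR, at 5.95, 7.24, 6.59 and 7.09, against 6.59, 6.88, 6.98 and 7.11 in MWF. These values equal those of 1 of its 2 exon-level probe sets on every array. The other probe set measured 4.52, 4.77, 4.86 and 5.02 in SHR. The gene-level difference of RT1-S2, 0.17 (SE 0.26), did not pass (adjusted p 0.747). The gene was singled out for its place after its values were seen.

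RT1-M6-1, a class I gene of the M region, measured 8.08, 7.89, 8.08 and 8.12 in MWF and 7.31, 7.45, 7.76 and 7.75 in SHR. The groups did not overlap, but MWF replicate 2 lay close to SHR replicates 3 and 4. The difference was 0.48 (SE 0.11, adjusted p 0.036), a ratio of 1.39. The call was lost without any 1 of the MWF arrays, SHR replicate 1 or SHR replicate 2, with adjusted p between 0.0531 and 0.0954, and with exon-level medians (0.0825).

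RT1-CE16, of the class I C/E region, had the largest difference in the other direction. It measured 5.64, 5.63, 5.75 and 5.73 in MWF and 7.11, 7.32, 7.35 and 7.37 in SHR. The MWF arrays were tightly grouped and every one lay below every SHR array. The difference was -1.60 (SE 0.07, adjusted p 4.66e-06), with SHR higher by a ratio of 3.03.

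RT1-CE10, of the same region, measured 6.92, 6.70, 6.61 and 6.69 in MWF and 7.39, 7.21, 7.44 and 7.35 in SHR. The strains did not overlap, and the difference was -0.62 (SE 0.08, adjusted p 0.0028). With the median of its exon-level probe sets as its value it was -0.23 and no longer passed (adjusted p 0.261, and 0.000532 to 0.261 over all alternatives).

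The other 17 class I genes did not pass. RT1-T24-1 was nearest, at 7.78, 8.07, 7.80 and 8.02 in MWF and 7.44, 7.73, 7.25 and 7.60 in SHR. Its groups did not overlap, and the difference of 0.42 (SE 0.11) had an adjusted p of 0.0635, which became 0.0227 without SHR replicate 2 and ran from 0.0197 to 0.152 over all alternatives. RT1-M1-4 differed by 0.34 (adjusted p 0.14), with MWF replicate 1 at 7.48 well above the other MWF arrays at 6.85 to 6.98, and by 0.20 without that array. RT1-M6-2 differed by 0.20 (adjusted p 0.166) and RT1-CE2 by -0.37 (adjusted p 0.186). The direction of RT1-CE2 turned to 0.27 when the median of its exon-level probe sets stood for it (adjusted p 0.437, and 0.0384 to 0.437 over all alternatives). The remaining 13 lay between -0.19 and 0.18, with adjusted p of 0.252 or more. Among these were RT1-S3 (0.00, SE 0.16) and RT1-M3-1 (-0.16, SE 0.10), whose mouse counterparts Qa-1 and H2-M3 present a narrow set of peptides.

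**Figure D1:**
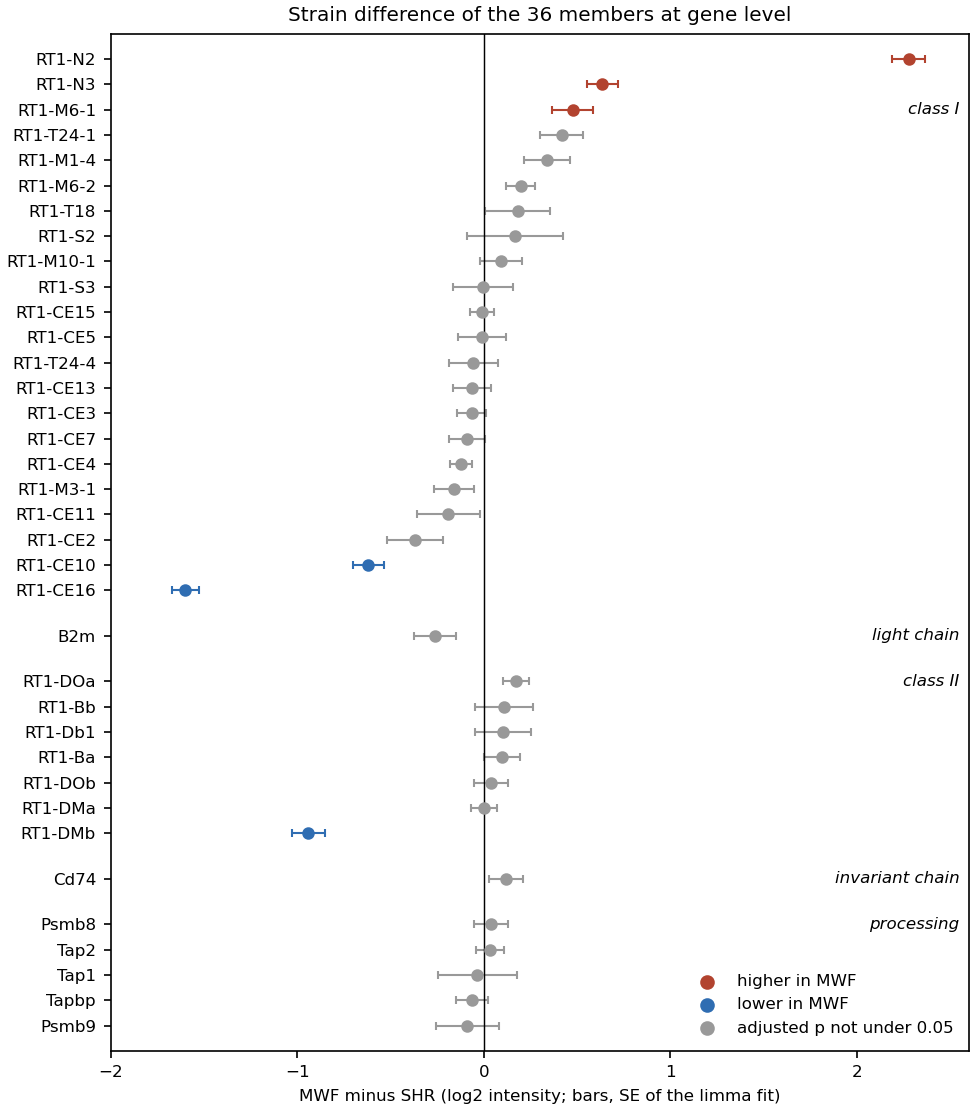
Differences of the 36 members at gene level (points, MWF minus SHR in log2 intensity, x axis) with the SE of the limma fit (bars), grouped by class. RT1-N2 at 2.28 and RT1-CE16 at -1.60 stand furthest from 0, and the 5 processing genes lie between -0.09 and 0.04.

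B2m, the light chain that class I heavy chains share, measured 11.21, 11.20, 11.03 and 11.02 in MWF and 11.47, 11.03, 11.46 and 11.53 in SHR. SHR replicates 1, 3 and 4 lay above all MWF arrays and SHR replicate 2 lay among them. The difference of -0.26 (SE 0.11) did not pass (adjusted p 0.213). Without SHR replicate 2 it was -0.38 and passed (adjusted p 0.0135), and without both that array and MWF replicate 1 it was -0.41 (adjusted p 0.0143). In both of these settings strain coincides with the sympathoadrenal signal. Over all alternatives the adjusted p of B2m ran from 0.0135 to 0.416. All 5 exon-level probe sets of B2m lay below 0, from -0.39 to -0.11, and none passed.

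The leukocyte and macrophage markers moved with the same arrays. Their mean over 21 measured of 23 genes was 7.06 to 7.38 in MWF, 7.23 on SHR replicate 2 and 7.60 to 7.83 on the other SHR arrays. Of the 21, 3 were lower in MWF (Coro1a, Lcp1 and Adgre1) and none higher, a share of 14.3% against 6.58% of the table. In all, 16 lay below 0. The mean over 10 measured endothelial markers, none of which passed, was 8.74 to 8.87 in MWF, 8.73 on SHR replicate 2 and 8.93 to 9.10 on the other SHR arrays. In whole kidneys, fewer cells of a type and less RNA per cell cannot be told apart, and the part of these cells in any result here was not tested.

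None of the 5 processing genes passed the test in limma, and 0 of them reached an unadjusted p under 0.05. Tap1, a subunit of the peptide transporter, measured 7.17, 7.25, 6.89 and 6.90 in MWF and 6.43, 7.54, 7.21 and 7.18 in SHR. These values equal those of a single exon-level probe set on every array. The SHR arrays spread to both sides of the MWF arrays, and the difference was -0.03 (SE 0.21, adjusted p 0.947). Its partner Tap2 differed by 0.04 (SE 0.08, adjusted p 0.825) and Tapbp, which encodes tapasin, by -0.06 (SE 0.09, adjusted p 0.714). Psmb8, an immunoproteasome subunit, differed by 0.04 (SE 0.09, adjusted p 0.843).

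Psmb9, another immunoproteasome subunit, measured 6.57, 6.81, 6.86 and 6.88 in MWF and 6.33, 7.03, 6.93 and 7.17 in SHR. These values overlapped, and the difference was -0.09 (SE 0.17, adjusted p 0.802). Its exon-level probe sets leaned one way: 5 of 6 lay below 0 and 3 had MWF below SHR without overlap, with a median of -0.33, yet none passed (smallest adjusted p 0.102).

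Among the 7 class II genes RT1-DMb alone passed. RT1-DMb encodes the β chain of DM, the endosomal exchange factor that frees class II molecules of the invariant chain fragment. It measured 6.76, 6.79, 6.86 and 6.55 in MWF and 7.63, 7.54, 7.75 and 7.81 in SHR. Every MWF array lay below every SHR array, and the difference was -0.94 (SE 0.09, adjusted p 0.000348), with SHR higher by a ratio of 1.92.

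RT1-DMa, which encodes the α chain of the same dimer, measured 8.72, 8.57, 8.63 and 8.47 in MWF and 8.57, 8.69, 8.52 and 8.61 in SHR. The strains overlapped throughout, with a difference of 0.00 (SE 0.07, adjusted p 0.995). The DM chains thus gave different values in the same arrays, and the difference between them was not tested. Neither had a named exon-level probe set.

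The other class II genes lay slightly above 0 and did not pass. RT1-DOa and RT1-DOb, chains of the DM inhibitor DO, differed by 0.17 (SE 0.07, adjusted p 0.181) and 0.04 (SE 0.09, adjusted p 0.835). RT1-Ba and RT1-Bb, chains of the class II molecule that corresponds to human DQ, differed by 0.10 (SE 0.10, adjusted p 0.609) and 0.11 (SE 0.15, adjusted p 0.725). RT1-Db1, a β chain of the DR-like molecule, differed by 0.10 (SE 0.15, adjusted p 0.731). The class II median was 0.10.

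Cd74, the invariant chain that guides class II molecules to endosomes, measured 7.00, 7.05, 7.07 and 6.95 in MWF and 6.85, 6.67, 6.99 and 7.08 in SHR. The groups overlapped, with a difference of 0.12 (SE 0.09, adjusted p 0.489). At exon level it had 9 probe sets, 6 of them above 0, and none passed. Of all 36 members, 30 (83.3%) had a mean intensity below the median of the table, so most values come from the dimmer part of the arrays.

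**Figure D2:**
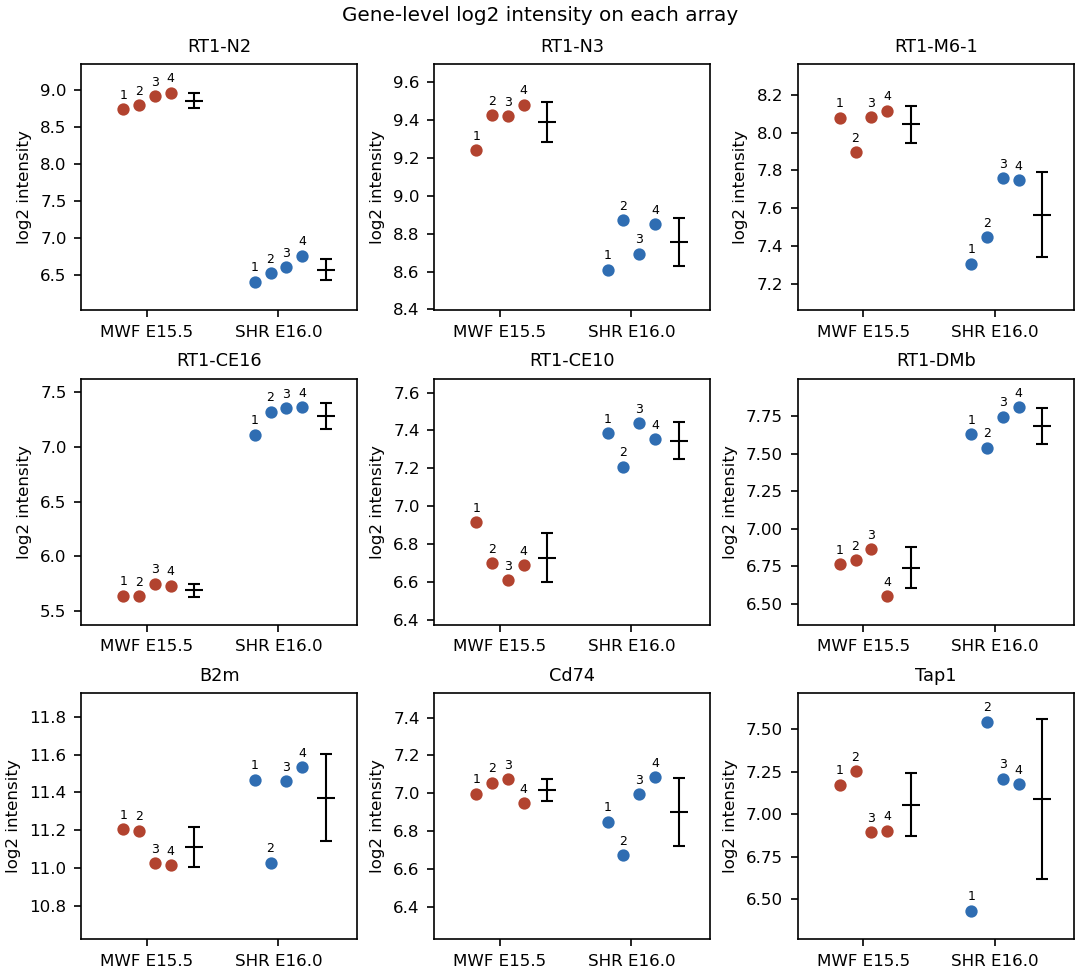
Gene-level log2 intensity (y axis, scaled separately in each panel) on each of the 8 arrays, numbered by replicate, with the mean and SD of the 4 arrays of a strain beside them. The strains separate in the 6 called genes, while in B2m SHR replicate 2, at 11.03, lies among the MWF arrays.

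At exon level, 17 of 250 member probe sets passed (6.8%), 9 higher and 8 lower in MWF, against 1.93% of the table (0.892% higher, 1.04% lower). All 17 belonged to class I, 17 of 155 probe sets (11.0%) in 8 genes. None of 44 class II, 37 processing, 9 Cd74 or 5 B2m probe sets passed in limma, with 0, 6, 0 and 2 of them at an unadjusted p under 0.05. The class II probe sets did not include RT1-DMb, the class II gene called at gene level, or RT1-DMa. No gene had called probe sets in both directions. The strains did not overlap in 42 of the 250, 21 in each direction, against 8.83% of the table.

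RT1-N2 had 6 exon-level probe sets, all with MWF above SHR and without overlap. The 5 that passed differed by 4.07, 3.03, 2.57, 1.98 and 1.34, and the other by 0.67. The probe set with the largest difference measured 9.87, 9.53, 10.16 and 10.28 in MWF and 5.90, 5.66, 5.59 and 6.41 in SHR, a ratio of 16.8 (SE 0.22, adjusted p 3.46e-05). The size of the strain difference varied between probe sets of the gene, with the same sign throughout. The call at 1.34 did not hold when MWF replicate 1, 3 or 4, or SHR replicate 4, was left out (adjusted p 0.0548 to 0.0634).

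RT1-N3 had 8 probe sets, all above 0, from 0.33 to 1.03 with a median of 0.58, and 7 of them did not overlap. The 3 that passed differed by 1.03, 0.87 and 0.84. The call at 1.03 did not hold when MWF replicate 1, 2 or 3, or SHR replicate 1, 3 or 4, was left out (adjusted p 0.0827 to 0.0909). That at 0.87 did not hold when MWF replicate 2, 3 or 4, or SHR replicate 3, was left out (0.0525 to 0.0605). RT1-M6-1 had 4 probe sets above 0, from 0.03 to 0.63, and none passed.

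RT1-CE16 was uneven: 4 of its 9 probe sets passed, at -3.38, -2.12, -2.01 and -1.66, and the other 5 lay between -0.48 and 0.03. The first measured 4.31, 4.25, 4.42 and 4.62 in MWF and 8.10, 7.50, 7.67 and 7.83 in SHR (SE 0.14, adjusted p 1.16e-05). RT1-CE10 rested on a single probe set of 8, at 5.89, 6.15, 5.85 and 6.36 in MWF and 7.99, 8.35, 8.11 and 8.33 in SHR. That one differed by -2.13 (SE 0.14, adjusted p 0.000128), and the other 7 lay between -0.76 and 0.25, with 4 of the 8 above 0 and 4 below.

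A classical class I gene, RT1-A1, had no gene-level probe set with a single symbol. One of its 4 exon-level probe sets passed, at 4.22, 4.65, 4.47 and 4.40 in MWF and 7.76, 7.44, 7.98 and 8.06 in SHR. It differed by -3.38 (SE 0.15, adjusted p 1.58e-05), while the other 3 lay between -0.62 and -0.04. RT1-A2, also classical, and RT1-CE14 each had 1 of 3 probe sets lower, by -1.09 and -1.12. They too had no gene-level probe set with a single symbol, only ones shared with other RT1 genes. RT1-CE5 had 1 of 5 higher, by 0.87, with the other 4 between -0.06 and 0.04 and a gene-level difference of -0.01.

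In 6 of the 17 called probe sets the dimmer strain's mean was under 4.97, the 10th percentile of all exon-level values. They belonged to RT1-A1, RT1-CE14, RT1-CE16, RT1-CE5 and RT1-N2, and there the dimmer strain was near the lowest intensities of the arrays. In genes with at least 3 probe sets, the median range between the lowest and the highest difference was 0.70 over 27 class I genes, 0.48 over 7 class II genes, 0.48 over 4 processing genes and 0.54 over all 13864 genes. The range was over 2 in 4 class I genes (14.8%: RT1-A1, RT1-CE10, RT1-CE16 and RT1-N2) and in 3.21% of all genes. These ranges are a description, with no test.

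**Figure D3:**
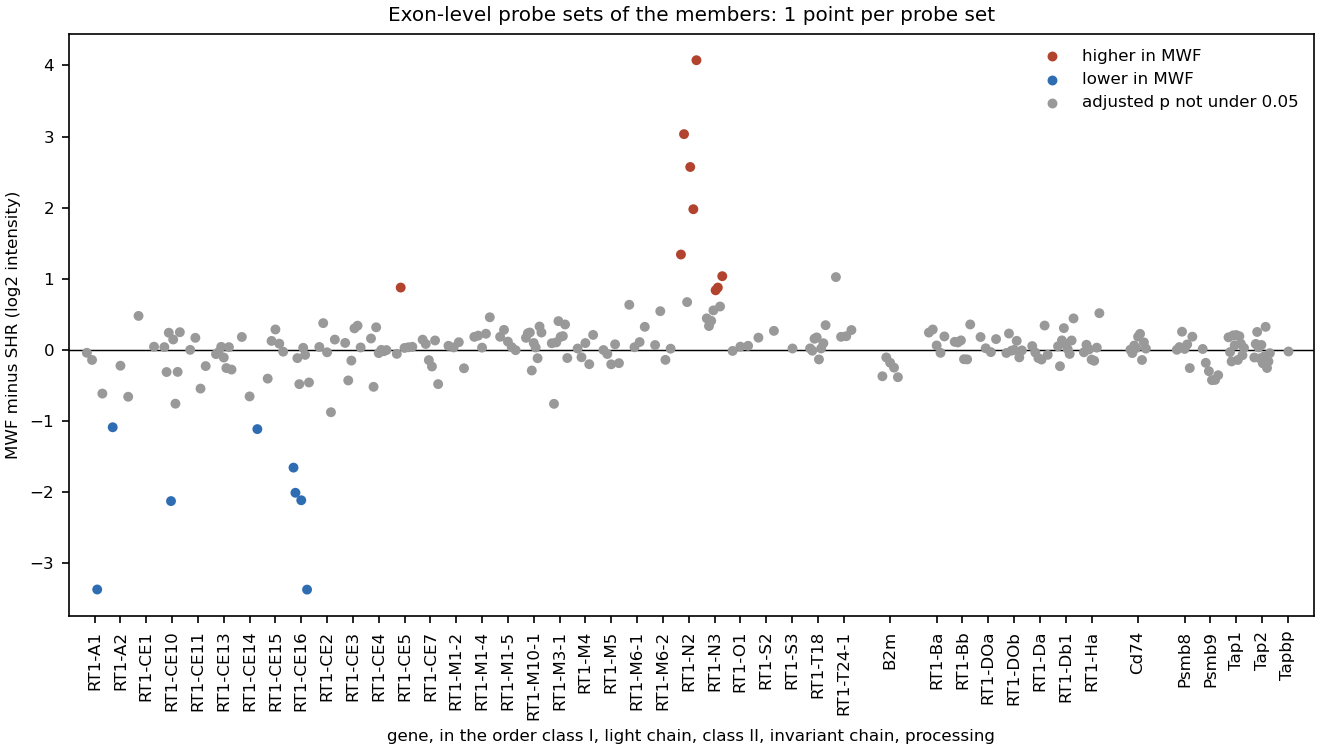
Differences (MWF minus SHR in log2 intensity, y axis) of the 250 exon-level probe sets, 1 point each, by gene along the x axis. The 9 higher and 8 lower calls are all in class I genes, and the points of RT1-N2 run from 0.67 to 4.07 while those of class II stay between -0.23 and 0.51. RT1-DMb and RT1-DMa have no point here.

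Probe sets that carry several RT1 symbols cannot be assigned to a gene and are not named. At gene level there were 4, of which 2 were lower in MWF and none higher in limma, against 6.58% of the table called. At exon level there were 16, of which 5 were lower and none higher, against 1.93% of the table. Among these 5, 1 repeated the values of another, which leaves 4 distinct ones. Their differences ran from -0.62 to 0.06 and from -2.02 to 1.11.

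A wider list of antigen presentation genes held 32 measured of 34, of which 1 was higher and 3 were lower in MWF (12.5%, against 6.58% of the table), with a median of -0.07. Erap1, the aminopeptidase that trims class I peptides in the endoplasmic reticulum, measured 7.59, 7.83, 7.63 and 7.83 in MWF and 8.68, 8.46, 8.56 and 8.36 in SHR. Raet1e, a class I-like ligand of the NKG2D receptor, measured 5.99, 6.05, 6.26 and 6.21 in MWF and 6.83, 6.97, 6.84 and 6.77 in SHR. Neither pair of groups overlapped, and the differences were -0.80 (SE 0.09, adjusted p 0.00113) for Erap1 and -0.73 (SE 0.08, adjusted p 0.000821) for Raet1e.

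Ifi30, a lysosomal thiol reductase that prepares antigens for class II, differed by -0.29 (SE 0.07, adjusted p 0.044). Nfyb, a subunit of the Y box factor NF-Y, differed by 0.28 (SE 0.06, adjusted p 0.0358). Both were near the threshold: Ifi30 was lost without any array but SHR replicate 2, and Nfyb without any MWF array or SHR replicate 3 or 4. The class II transactivator Ciita and the RFX subunits were measured and did not pass.

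Of 13 measured of 16 interferon receptor and signalling genes, 2 were lower in MWF and none higher in limma (15.4%, against 6.58% of the table), with a median of -0.14 and 10 of the 13 below 0. Ifngr1, the ligand-binding chain of the interferon gamma receptor, measured 10.35, 10.50, 10.48 and 10.38 in MWF and 10.87, 10.83, 10.91 and 10.83 in SHR. Stat2, a transcription factor of type I interferon signalling, measured 8.56, 8.64, 8.64 and 8.64 in MWF and 8.94, 9.00, 8.99 and 8.97 in SHR. Both separated the strains, at -0.43 (SE 0.06, adjusted p 0.00317) and -0.36 (SE 0.05, adjusted p 0.00445). Ifnar1 (-0.18, adjusted p 0.0986) and Irf7 (-0.25, adjusted p 0.183) did not pass.

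Genes that lie among the members were called about as often as the rest of the table. Between RT1-M3-1 and RT1-DOa on chromosome 20, the RefSeq table lists 382 genes, of which 116 had a gene-level probe set, 33 of them members and 83 not. Of these 83, 1 was higher and 4 were lower in MWF, a share of 6.02% near the 6.58% of the table, with a median of 0.01. Nelfe, a subunit of the negative elongation factor, differed by -0.49 (SE 0.08, adjusted p 0.00804) and G4 by -0.37 (SE 0.06, adjusted p 0.00481).

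The other 3 calls were near the threshold. The tubulin gene Tubb5 differed by -0.23 (adjusted p 0.0275), the nuclear membrane gene Nrm by -0.31 (adjusted p 0.0408) and the butyrophilin-like gene Btnl7 by 0.38 (adjusted p 0.0436). Nrm was lost without any 1 array, Tubb5 without any but SHR replicate 2, and Btnl7 without any but SHR replicate 4. In gene order, the called members RT1-M6-1, RT1-N2 and RT1-N3 stood at places 6, 20 and 22 of the 116, RT1-CE16 and RT1-CE10 at 45 and 49, and RT1-DMb at 113.

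**Figure D4:**
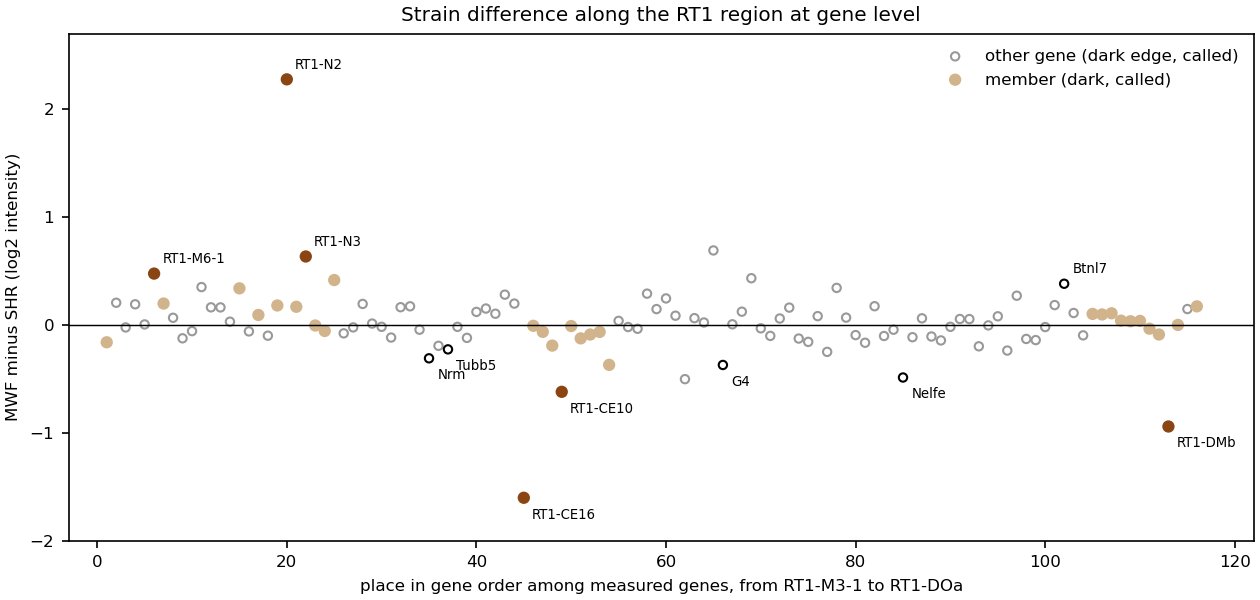
Gene-level difference (MWF minus SHR in log2 intensity, y axis) of the 116 measured genes from RT1-M3-1 to RT1-DOa in RefSeq gene order (x axis), with members filled and other genes open, and called ones dark. Called members stand at places 6, 20, 22, 45, 49 and 113, and 5 of the 83 other genes are called.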

How the data were processed

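Total RNA of embryonic kidneys was measured on 8 arrays, 4 per strain. The authors deposited log2 intensities at gene level and exon level, already normalized between arrays as their medians show. Per the submitters' processing notes Partek was used. Its settings and the genome build were not given in the sources used here. Whether samples of a strain are separate animals is not in the labels, and p-values reflect the spread between samples only. The number of arrays limits the precision.

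Platform symbols were updated through RefSeq GRCr8. At gene level the gene ID was tried first, then accession, symbol or unique synonym (12936 of 12936 matched). At exon level the match was by symbol or unique synonym (172411 of 172924). By synonym, 53 of the 250 exon-level members gained their RT1 names. Probe sets with several symbols (184 and 1661) or none (8251 and 38482) were tested but not named.

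Strain was the single term of a linear model (lmFit, eBayes) fitted to each whole table in limma 3.58.1 under R 4.3.3, with Benjamini-Hochberg adjustment over all its probe sets and calls at an adjusted p under 0.05. A gene with several probe sets outside the members took the one with the highest mean. Named were the called members, all class II, light chain, invariant chain and processing genes, the 4 class I genes next in p, the 6 largest exon-level calls in each direction, and in other lists the called genes and up to 4 with the smallest p. The calls of RT1-A2, RT1-CE14 and RT1-CE5, those of RT1-N3 beyond the largest, and RT1-S2, RT1-S3 and RT1-M3-1 were named after their values were seen. Members and lists were chosen with earlier results of these data known. The fit was tested on simulated data in which 100 probe sets were changed by each size. Of log2 changes of 0.5 it found 66% at gene level (21371 probe sets) and 0% at exon level (213067). Of changes of 1 it found 90% and 36%, with 14 and 2 false calls. Fewer probe sets were changed than the 1407 and 4112 called in the data. The adjusted threshold was therefore stricter in the simulation, and its shares need not hold for the data. Protein sequences were not used here. Alternatives covered normalization, variance model, array weights, dim probe sets, exon-level medians, symbols, replicate block and leaving out arrays. Promoters were aligned with Biopython 1.88 (match 1, mismatch -1, gap -2 and -0.5).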

Additional observations from a re-analysis of the deposited data

Results flagged for a closer look

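In all, 6 of 118 groups of 4 arrays had 1 array set apart from the others by Dixon's criterion on the gap over the group's range, and chance flags about 1 in 20. For B2m, SHR replicate 2 measured 11.03 against 11.46 to 11.53 on the other SHR arrays. On the same array the mean of the 4 sympathoadrenal genes was 6.03 against 10.78 to 11.16, and on MWF replicate 1 it was 8.14 against 6.14 to 6.30.

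RT1-CE16 measured 7.11 on SHR replicate 1 against 7.32 to 7.37 on the other SHR arrays, still above all MWF arrays. RT1-M6-1 measured 7.89 on MWF replicate 2 against 8.08 to 8.12 on the other MWF arrays. The called exon-level probe set of RT1-A2 measured 5.62 on MWF replicate 4 against 5.99 to 6.05.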

How the results depend on the processing

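No called result changed direction under the alternatives that gave it a value. Of the gene-level members, 3 were higher and 3 lower. Without probe sets dimmer than the median, where 6 members are left, 1 was higher and 0 lower (limma), and 1 was lower when a gene's exon-level median stood for it. Leaving out 1 array gave 2 to 3 higher and 3 to 4 lower. Of the exon-level members, 9 were higher and 8 lower, with 1 lower without the dim probe sets and 6 to 10 higher and 8 to 11 lower without 1 array. Leaving out both MWF replicate 1 and SHR replicate 2, chosen after seeing the data, gave 3 higher and 4 lower at gene level and 11 and 8 at exon level.

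Of the genes between the RT1 genes, 1 was higher and 4 were lower. The higher count was 3 with array weights, 2 with trend and robust eBayes, median centring, quantile normalization or the mean of a gene's probe sets, and 0 without dim probe sets. Without 1 array they were 0 to 2 higher and 2 to 4 lower. The other antigen presentation genes were 0 to 1 higher and 2 to 5 lower without 1 array, and 1 lower without dim probe sets. The cause was not tested.

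Same-numbered arrays correlated at 0.10 to 0.28 at gene level and at -0.02 to 0.13 at exon level, not every one over 0.1, so the labels and this check do not pair the samples. The best match of an MWF array was the SHR array of its own number for 3 of 4 at gene level and 2 of 4 at exon level, a hint from the data only. With a replicate block the counts were 4 higher and 4 lower among gene-level members, 9 and 9 at exon level, 2 and 2 between the RT1 genes, 0 and 3 in other antigen presentation and 0 and 2 in interferon genes. The block brought RT1-T24-1 (adjusted p 0.0222) and RT1-CE2 (0.0384) past the threshold and took Ifi30, Nfyb, Nrm and Tubb5 out (0.0553 to 0.0728). Dim signal limits most members, 30 of 36 lying below the table median.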
